A study of Macaca fascicularis with 2 samples.

Results

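DNTT, CD1A, SOX4, PECAM1, SATB1 and TOX2 are 6 of the 29324 genes listed for the circulating CD4+CD8+ T cells of 1 cynomolgus monkey (Macaca fascicularis), and all of them carried UMIs (molecular tags that let each captured RNA copy be counted once). They were taken by symbol and had been selected on earlier results of these cells, in which they were higher in naive cells than in the rest. The animal was untreated and 10 years old. CD4+ cells were drawn from fresh peripheral blood mononuclear cells with magnetic beads that are released again, CD8+ cells were drawn from those with a second kind of bead, and the cells were stained with antibody tags for CD4 (clone SK3) and CD8α (clone SK1). A 5′ gene expression library and a tag library were made from the same cells and share their 8953 barcodes. With 1 animal and 1 preparation there is no replicate, so no test was made, and every interval given is a 95% interval for counting error only.

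Thymocytes assemble their antigen receptors in steps, the beta chain before and the alpha chain while they carry both CD4 and CD8. Those that leave the thymus mostly do so as naive T cells with CD4 or CD8 alone. DNTT encodes terminal deoxynucleotidyl transferase, which adds untemplated bases at receptor gene junctions. CD1A encodes a lipid-presenting surface protein of cortical thymocytes and some dendritic cells. SOX4, SATB1 and TOX2 encode DNA-binding proteins, of which SATB1 organizes chromatin in thymocytes and TOX2 belongs to the TOX family known from thymocyte selection and follicular helper T cells. PECAM1 encodes CD31, an adhesion receptor used to mark naive CD4 T cells that left the thymus recently.

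After the limits of the authors on genes and mitochondrial UMIs, 8830 cells with 31677119 gene UMIs remained, with a median of 3145 per cell. The naive gate took cells with at least 3 UMIs of CCR7, LEF1 and TCF7 together and none of GZMA, GZMB, GZMK or NKG7. Without FOXP3 it held 4854 cells (55.0%). A FOXP3 UMI, the mark of regulatory T cells, was found in 384 cells (4.35%), of which 228 were in the naive gate and 156 outside it. The other 3592 cells (40.7%) comprised 1958 with a UMI of the 4 cytotoxic genes and 1634 without. To compare shares of cells across depths, each cell was thinned to 2200 UMIs, which left out 754 shallower cells (373 of the naive gate, 14 FOXP3-positive and 367 others). As a measure of free RNA, 113 B-cell-like barcodes were used, with a median depth of 4549 UMIs against 3002.5 in the naive gate. They held at least 3 UMIs of MS4A1, CD79A and CD79B together and at most 1 of CD3D, CD3E, CD3G and TRAC together. In the naive gate 6 listed T cell genes summed to 3866 CPM (UMIs per 1000000 gene UMIs of the group) and 6 listed B cell genes to 86.7 CPM. Monocyte genes summed to 2.81 CPM there, plasmacytoid dendritic cell genes to 2.75 CPM, platelet genes to 0.488 CPM and progenitor genes to 0.122 CPM. Dendritic cell genes summed to 19.3 CPM, of which CD1C gave 310 of 317 UMIs, with FCER1A, CLEC10A and FLT3 at 0. NK cell genes summed to 19.0 CPM from 312 UMIs, with NCR1 and KLRF1 at 0.

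The word thymic is used for these genes only as background. Of 17 listed genes of cortical thymocytes, 12 had UMIs in the naive gate, among them CD1D (84 UMIs) and ELOVL4, a fatty acid elongase (151 UMIs). RAG1, which starts receptor gene rearrangement, was at 0 UMIs in the naive gate, which allows a level of up to 0.183 CPM (3 UMIs of the total). PTCRA, the pre-T receptor chain, was also at 0, and RAG2 had 2 UMIs in all (0.122 CPM). CD1E and MME, further genes of cortical thymocytes, were at 0 as well. The 6 genes are therefore called by their symbols below.

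Each gene was sparse, and most positive cells held a single molecule. In the naive gate without FOXP3, DNTT was detected in 576 of 4481 thinned cells, or 12.9% (11.9% to 13.9%). CD1A was detected in 515 cells, or 11.5% (10.6% to 12.5%). SOX4 was detected in 467 cells, or 10.4% (9.54% to 11.4%). These shares overlapped between neighbours in that order. Among the positive cells 88.5%, 84.1% and 88.7% held 1 UMI of DNTT, CD1A and SOX4, and the largest values were 5, 5 and 4 UMIs. PECAM1 was found in 41.7% (40.2% to 43.1%) and SATB1 in 41.3% (39.9% to 42.8%) of the cells, with up to 8 UMIs each. TOX2 was the least often detected, in 8.79% (7.98% to 9.66%). Without thinning the shares were 16.8% for DNTT, 15.5% for CD1A, 14.2% for SOX4, 52.6% for PECAM1, 53.0% for SATB1 and 12.5% for TOX2.

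In the B-cell-like control DNTT was found in 0 of 111 thinned barcodes, which allows a share of up to 2.70% (3 barcodes; exact upper limit 3.27%). The control share was 3.60% (0.990% to 8.97%) for CD1A, 0.901% for SOX4 and TOX2, 2.70% for SATB1 and 4.50% for PECAM1. All shares in the naive gate without FOXP3, taken as a whole, were above these, while several other shares were not. The control was limited to barcodes with few UMIs of T cell genes (32.5 CPM summed), so it may understate the free RNA of T cells. Inside the gate, DNTT in FOXP3-positive cells (3 of 224 cells) lay within its control limit. CD1A in the naive CD4loCD8hi cells described below (0 of 100 cells) was under its control share. CD1A in the other cells with a cytotoxic UMI (1.54%) and in FOXP3-positive cells outside the gate (2.05%) was under the control share. By size alone, these shares cannot be told from free RNA.

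**Figure D1:**
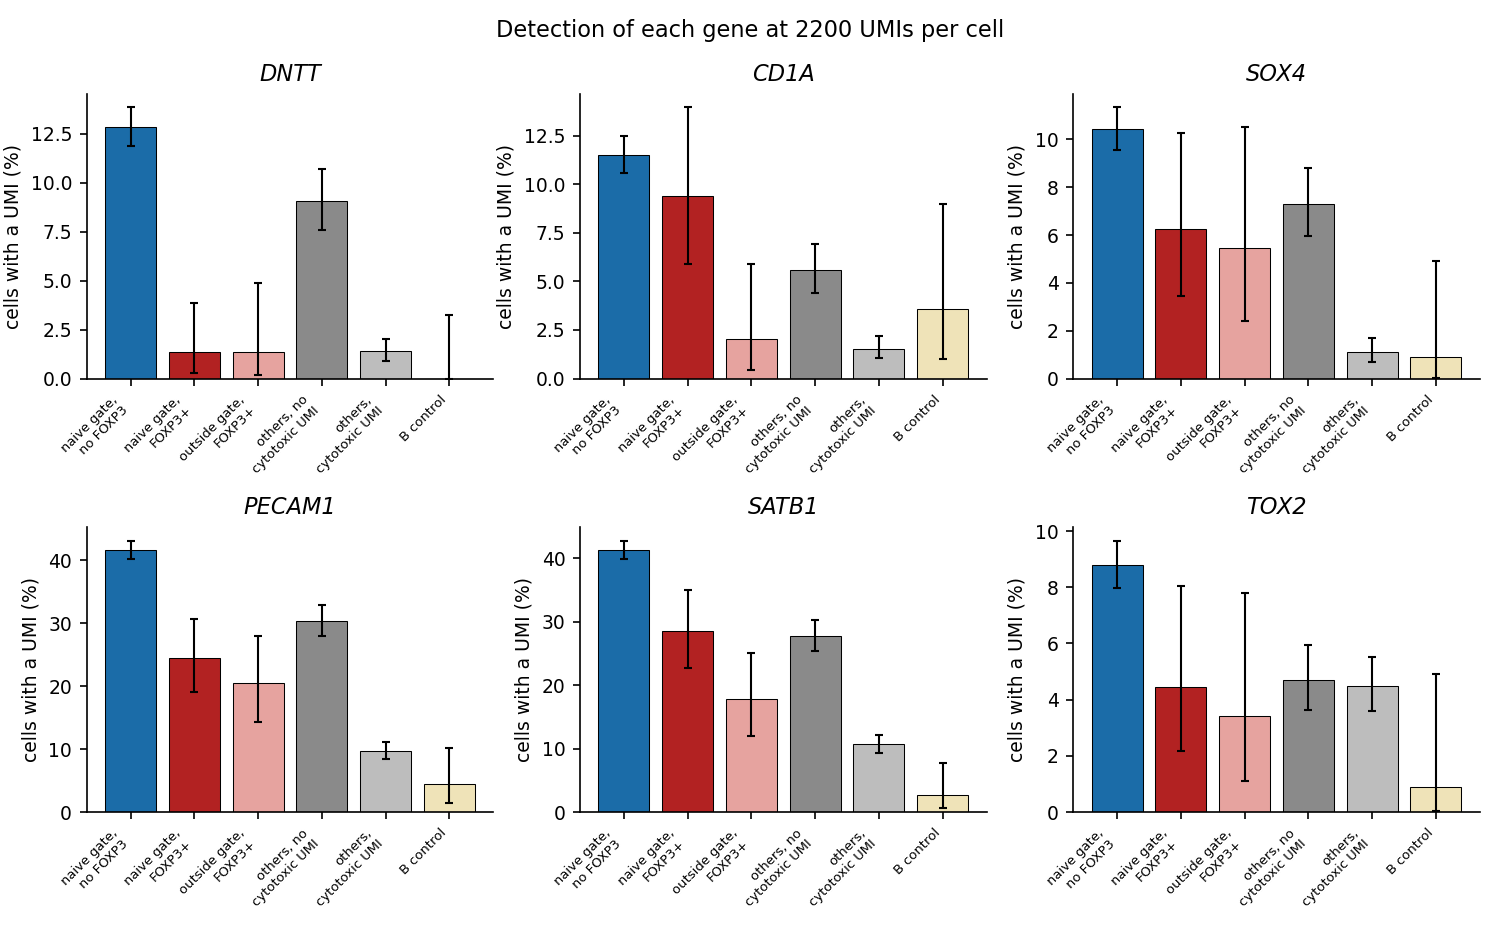
Share of cells with at least 1 UMI of each gene after thinning to 2200 UMIs per cell, by cell group. Bars are shares and error bars exact binomial 95% intervals. DNTT is at 12.9% in the naive gate without FOXP3 and 1.34% in the naive gate with FOXP3, whereas CD1A is at 11.5% and 9.38%.

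The first comparison set the naive gate without FOXP3 against all other FOXP3-negative cells. Since the genes were selected on a contrast of this kind, the values are a description. DNTT had 961 UMIs in the naive gate and 273 in the others, 58.6 CPM (55.0 to 62.5) against 19.9 CPM. CD1A had 965 and 210 UMIs, 58.9 CPM (55.2 to 62.7) against 15.3 CPM. SOX4 had 806 and 233 UMIs, 49.2 CPM against 17.0 CPM. On the log2 scale the ratios were 1.56, 1.94 and 1.53. The ratio was 1.29 for PECAM1, 1.27 for SATB1 and 0.88 for TOX2, so 5 of the 6 genes were at least 2-fold higher, where 2.49% of the 10097 tested genes (50 UMIs or more in the 2 groups together) were. With the naive gate at 5 UMIs only CD1A (1.33) of the 6 was, with DNTT at 0.77 and SOX4 at 0.97. Between 67.0% (TOX2) and 78.2% (CD1A) of each gene's UMIs lay in the naive gate, which held 16387581 of the 31677119 UMIs of all genes.

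The others were not uniform. DNTT was found in 9.06% of those without a cytotoxic UMI and in 1.38% of those with one. For SOX4 these shares were 7.28% and 1.12%, for PECAM1 30.4% and 9.74%, and for SATB1 27.8% and 10.6%. TOX2 differed from this pattern, at 4.68% and 4.47%. In the cells with a cytotoxic UMI, the DNTT share lay within its control limit and the SOX4 share lay near its control share. By size alone, these DNTT and SOX4 shares cannot be told from free RNA. Just outside the gate, in cells with 2 UMIs of CCR7, LEF1 and TCF7, DNTT stood at 57.2 CPM, CD1A at 33.0, SOX4 at 47.0, PECAM1 at 197, SATB1 at 190 and TOX2 at 28.8 CPM. Just inside it, at 3 UMIs, the levels were 63.1, 44.1, 45.1, 227, 234 and 37.5 CPM in the same order. The gate thus cut through a graded range. Memory and effector genes moved with it: of 16 listed, 14 were found and 13 were at least 2-fold lower in the naive gate, where 10.3% of tested genes were, with a median log2 ratio of -3.09 against -0.11 over all tested genes. Markers of other cells were also lower in the naive gate by at least 2-fold, in 5 of 6 tested B cell genes (median -3.36), 5 of 5 monocyte genes (-6.66), 3 of 3 NK cell genes (-7.50) and 4 of 5 cycling genes (-4.22). The others without a cytotoxic UMI held 689 CPM of B cell and 208 CPM of monocyte genes. Cells with UMIs of other cell types were left out in an alternative below, and the part of such cells in the ratios was not tested beyond that. In cells with at most 3 UMIs of these 14 genes after thinning, a limit chosen after the data had been seen, the log2 ratio of the naive gate to the others was 0.22 (-0.02 to 0.46) for DNTT, 0.68 (0.42 to 0.96) for CD1A and 0.24 (-0.02 to 0.50) for SOX4.

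Detection was then followed over the number of naive-gene UMIs left after thinning, in FOXP3-negative cells without a cytotoxic UMI. DNTT went from 4.13% of the 557 cells with 0 such UMIs to 10.1% at 1 UMI and 13.9% at 3 to 4 UMIs, and stood at 13.3% at 7 or more. CD1A went from 3.23% at 0 UMIs to 7.81% at 2 UMIs and 15% at 5 to 6 UMIs. SOX4 went from 3.59% at 0 UMIs to 13.3% of the 406 cells with 7 or more. PECAM1 (23.0% to 42.9%), SATB1 (20.8% to 47.8%) and TOX2 (3.05% to 11.1%) were also lowest at 0 and higher at 7 or more. Since the genes had been selected as higher in naive cells, this too is a description. In FOXP3-positive cells without a cytotoxic UMI, CD1A went from 4.58% of 131 cells with 0 to 1 naive-gene UMI to 5.88% of 170 cells with 2 to 4 and 15.6% of 45 cells with 5 or more. DNTT was at 1.53%, 1.18% and 2.22% of the same cells.

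**Figure D2:**
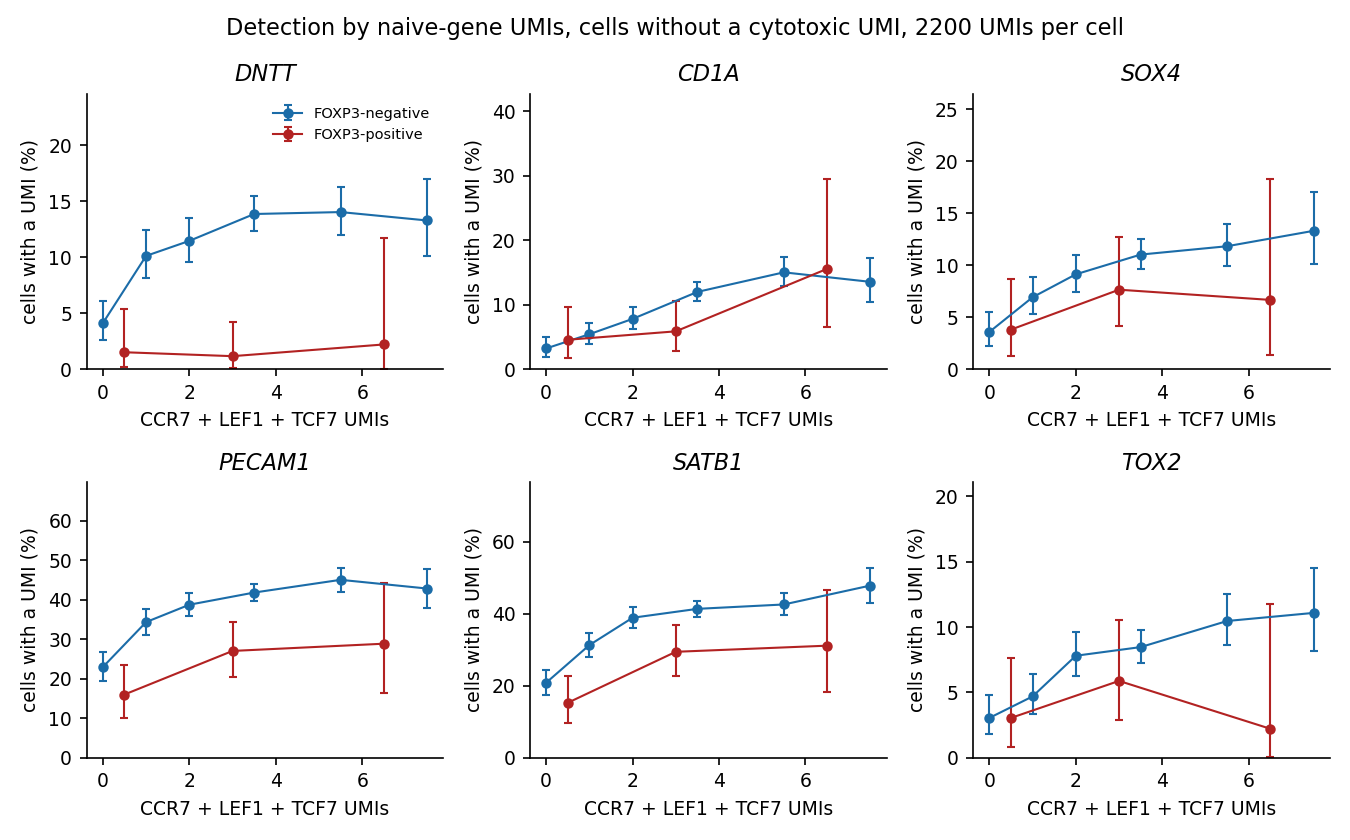
Share of cells with a UMI of each gene against the summed UMIs of CCR7, LEF1 and TCF7 after thinning to 2200 UMIs, for FOXP3-negative (blue) and FOXP3-positive (red) cells without a cytotoxic UMI. Points stand at the middle of each bin, the last bin is open and error bars are exact binomial 95% intervals. DNTT stays between 1.18% and 2.22% in FOXP3-positive cells, and CD1A is at 15.6% in their last bin.

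The second comparison asked how FOXP3-positive cells differ. Over all 384 of them, DNTT had 15 UMIs (9.47 CPM, 5.30 to 15.6), CD1A 59 (37.2 CPM) and SOX4 40 (25.3 CPM). Their log2 ratios to the naive gate without FOXP3 were -2.63 (-3.47 to -1.90), -0.66 (-1.07 to -0.28) and -0.96 (-1.46 to -0.50). PECAM1 was at -0.82, SATB1 at -0.95 and TOX2 at -1.33. Of 14 memory and effector genes 11 were at least 2-fold higher in the FOXP3-positive cells (median 1.76), where 3.08% of all genes were, and LYZ, a monocyte gene, was at 5.21 (43 against 12 UMIs). Their part in these ratios was not tested. DNTT and TOX2 were the 2 of 6 genes at least 2-fold lower, where 4.48% of 9080 genes were. Both reached 50 UMIs (the limit for testing a gene) through the naive gate without FOXP3, so nothing is read from this count. DNTT was detected in 5 of 370 thinned FOXP3-positive cells (1.35%, 0.440% to 3.13%), within the limit of the B-cell-like control, so this share cannot be told from free RNA. The CD1A share in all FOXP3-positive cells (24 of 370, 6.49%) also lay within its control interval.

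The naive gate alone gave a like contrast between DNTT and CD1A. DNTT had 13 UMIs in the 228 FOXP3-positive cells, 13.6 CPM (7.24 to 23.3), and was 4.31-fold lower than in the naive cells without FOXP3 (log2 ratio -2.11, -3.02 to -1.33). CD1A had 51 UMIs, 53.4 CPM (39.7 to 70.2), with a log2 ratio of -0.14 (-0.58 to 0.26). The intervals of the 2 ratios did not overlap. In the B-cell-like control DNTT was at 0 CPM (upper limit 6.65) and CD1A at 10.8 CPM (3.97 to 23.6). SOX4 lay between them at 29 UMIs, 30.3 CPM and a log2 ratio of -0.70 (-1.28 to -0.16). PECAM1 (143 UMIs) was at -0.69 (-0.94 to -0.45) and SATB1 (145 UMIs) at -0.67 (-0.92 to -0.43), while TOX2 (20 UMIs) was at -1.03 (-1.75 to -0.40). Here too DNTT and TOX2 were the 2 of 6 genes at least 2-fold lower, where 5.84% of 9004 genes were. Of all genes tested, 0.755% were lower than DNTT and 39.7% lower than CD1A. DNTT and TOX2 again reached the UMI limit for testing a gene through the naive cells without FOXP3. Nothing is therefore read from their count or from the rank of DNTT. The thinned shares were 1.34% (3 of 224 cells, within the control limit) for DNTT, 9.38% (21 cells, 5.90% to 14%, overlapping the control interval) for CD1A and 6.25% (14 cells) for SOX4. The DNTT share rested on few cells: it was 5.26% (12 of 228) without thinning, at a median depth of 3746 against 3002.5 UMIs.

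Cells with more FOXP3 kept this order. In the 88 naive-gate cells with at least 2 FOXP3 UMIs, DNTT had 2 UMIs (5.13 CPM, 0.622 to 18.5) and CD1A had 27 (69.3 CPM, 45.7 to 101). In the 140 cells with 1 FOXP3 UMI, DNTT had 11 UMIs (19.4 CPM) and CD1A was at 42.4 CPM. The intervals of DNTT overlapped between these cells, as did those of CD1A. The FOXP3-positive cells of the gate carried the other genes of regulatory T cells: all 8 listed genes found were at least 2-fold higher than in the naive cells without FOXP3, where 2.01% of tested genes were. FOXP3 is among the 8, and the gate fixed its call. The log2 ratios included 3.79 for IL2RA (a chain of the IL-2 receptor), 2.80 for CTLA4 (an inhibitory receptor) and 1.84 for IKZF2 (a transcription factor). Their memory and effector genes summed to 1701 CPM against 1174 CPM. In those of them low in memory genes (168 cells), DNTT was at 12.2 CPM (5.27 to 24.0), CD1A at 73.2, SOX4 at 35.1 and TOX2 at 13.7 CPM. TOX, the founding member of the TOX family, was higher in these FOXP3-positive cells, at 81.6 against 61.1 CPM (log2 ratio 0.42, 0.07 to 0.75), unlike TOX2.

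Inside against outside the naive gate, FOXP3-positive cells had 51 against 8 UMIs of CD1A, 53.4 against 12.7 CPM (log2 ratio 2.07, 0.98 to 3.35). Only CD1A, PECAM1 and SATB1 reached 50 UMIs over both groups, CD1A through the cells inside the gate, so nothing is read from its passing 2-fold beside the 0.688% of 3198 genes that did. SATB1 was at 0.85 (0.38 to 1.33) and PECAM1 at 0.36 (-0.05 to 0.79). DNTT had 13 against 2 UMIs, SOX4 29 against 11 and TOX2 20 against 7. Memory and effector genes summed to 1701 CPM inside and 4589 CPM outside. Of them 6 of 10 tested were at least 2-fold lower inside, where 2.03% of 3198 genes were. Monocyte genes summed to 2.09 CPM inside and 102 CPM outside. The part of memory, effector and monocyte genes was not tested here either.

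Surface tags come from the second library and were not used in choosing the genes. Cells were called CD4hi above 145 CD4 tag UMIs and CD8hi above 504 CD8 tag UMIs. The naive gate without FOXP3 held 4060 CD4hiCD8lo, 675 CD4hiCD8hi, 103 CD4loCD8hi and 16 CD4loCD8lo cells, and the last were too few to describe. Over all kept cells 72.1% were CD4hiCD8lo, 21.8% CD4hiCD8hi, 4.72% CD4loCD8hi and 1.33% CD4loCD8lo. The median CD8 tag of the naive CD4hiCD8lo cells was 227 UMIs, against 199 in the B-cell-like barcodes and 716 in the naive CD4hiCD8hi cells, and their median CD4 tag was 423 against 135 in the B-cell-like barcodes. In the naive CD4loCD8hi cells the median CD4 tag was 100 UMIs, under that of the B-cell-like barcodes, so the tag did not show CD4 on them. Median depth differed in the naive gate, at 2932, 3817 and 4026 UMIs in the first 3.

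All 6 genes were highest in the CD4hiCD8lo cells. DNTT was at 65.3 CPM (61.0 to 69.9) in CD4hiCD8lo, 35.8 (29.4 to 43.2) in CD4hiCD8hi and 11.5 (3.75 to 27.0) in CD4loCD8hi cells, from 840, 109 and 5 UMIs. CD1A was at 67.2 CPM (62.8 to 71.8) and 33.2 CPM (27.0 to 40.3) in the first 2, from 864 and 101 UMIs, and at 0 UMIs in CD4loCD8hi cells. SOX4 was at 54.4, 31.9 and 16.2 CPM, from 700, 97 and 7 UMIs. These 3 genes had the same order of gates, and the CD4hiCD8lo and CD4hiCD8hi intervals did not overlap for any of them. How many of all genes had such intervals was not counted. Of 8874 tested genes, 1.21% had a lower log2 ratio of CD4hiCD8hi to CD4hiCD8lo cells than DNTT, 0.631% than CD1A and 1.84% than SOX4. The genes had been selected as higher in naive cells, and memory and effector genes were higher in the CD4hiCD8hi cells. These ranks are thus a description, and the part of that selection in them was not tested. TOX2 was at 47.4, 29.6 and 4.62 CPM, the last from 2 UMIs. PECAM1 was at 249, 213 and 206 CPM and SATB1 at 258, 189 and 132 CPM, so these more broadly detected genes varied least.

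**Figure D3:**
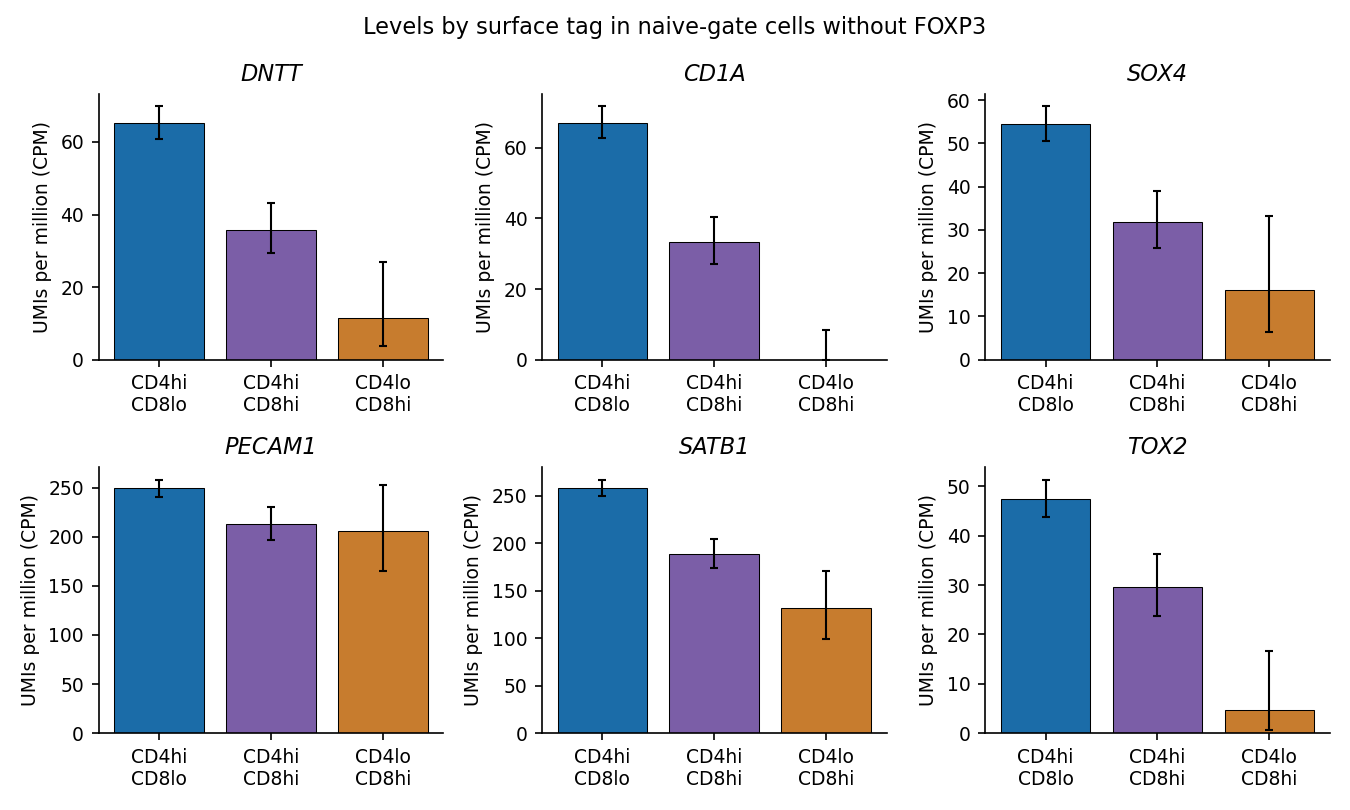
Level of each gene in CPM by surface tag gate, in naive-gate cells without FOXP3. Bars are summed UMIs per 1000000 gene UMIs and error bars exact Poisson 95% intervals. CD1A goes from 67.2 to 33.2 to 0 CPM across the gates, whereas PECAM1 stays between 249 and 206 CPM.

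In CD4hiCD8hi against CD4hiCD8lo cells the log2 ratio was -0.87 (-1.17 to -0.58) for DNTT, -1.02 (-1.33 to -0.72) for CD1A, -0.77 (-1.09 to -0.46) for SOX4 and -0.68 (-1.02 to -0.36) for TOX2. It was -0.45 for SATB1 and -0.23 for PECAM1. CD1A was the 1 of 6 genes at least 2-fold lower, where 0.676% of 8874 genes were. The thinned shares were 7.85% against 14% for DNTT, 6.46% against 12.7% for CD1A and 8.15% against 11% for SOX4. Memory and effector genes moved the other way, at 2383 against 887 CPM summed. So did regulatory genes, with 4 of 7 at least 2-fold higher (115 against 60.2 CPM summed), and B cell genes, with 2 of 3 (111 against 75.3 CPM). Of 11 tested genes of recent thymic emigrants, 3 were at least 2-fold higher, 0 lower and 8 neither, with a median log2 ratio of -0.42 against -0.01 over all genes, of which 1.84% were higher. The 3 were CCR9, a gut and thymus homing receptor (17.7 against 3.19 CPM), and the complement receptors CR2 (36.8 against 10.2 CPM) and CR1 (32.5 against 12.7 CPM). Among cells low in memory genes (431 and 3346), DNTT was at 49.3 against 69.6 CPM, CD1A at 47.0 against 73.9 and SOX4 at 45.3 against 58.3 CPM, and the log2 ratios were -0.50, -0.65 and -0.36. The thinned shares were 10.7% against 14.7% for DNTT and 8.58% against 13.5% for CD1A, but 11.6% in both for SOX4, whose CPM intervals overlapped. In the same cells PECAM1 was at 254 against 257 CPM, SATB1 at 237 against 274 and TOX2 at 38.5 against 50.1 CPM. The intervals of PECAM1 and TOX2 also overlapped. The part of memory-type cells in the difference beyond this limit, and that of regulatory and B cell genes, was not tested.

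CD4loCD8hi cells were fewer but further apart. CD1A was at 0 UMIs there, at least 9.69-fold lower than in CD4hiCD8lo cells, with a floor of 3 UMIs. It was found in 0 of 100 thinned cells, which allows a share of up to 3.0% (3 cells; exact upper limit 3.62%). The log2 ratio to CD4hiCD8lo cells was -2.50 (-4.13 to -1.27) for DNTT, -1.75 (-3.07 to -0.70) for SOX4 and -3.36 (-6.41 to -1.50) for TOX2. It was -0.97 (-1.38 to -0.59) for SATB1 and -0.28 (-0.60 to 0.03) for PECAM1. Thus 4 of the 6 genes were at least 2-fold lower, where 12.6% of 8548 genes were. All 4 reached the UMI limit for testing a gene through the CD4hiCD8lo cells, so nothing is read from this count. CD1C, with 257 UMIs in CD4hiCD8lo cells, was also at 0 UMIs. CD1D was at 0 as well, but its 5.36 CPM in CD4hiCD8lo cells is under the floor of 6.93 CPM, so no difference was detectable at this depth. TOX was at 18.5 against 66.5 CPM and TOX4 at 41.6 against 63.3 CPM. Memory and effector genes summed to 1002 against 887 CPM. In the 87 CD4loCD8hi cells low in memory genes CD1A was again at 0, DNTT at 8.36 and TOX2 at 5.57 CPM.

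Outside the naive gate the order of gates was not uniform. Among all the others DNTT was at 32.2 CPM in CD4hiCD8lo, 10.8 in CD4hiCD8hi and 2.52 in CD4loCD8hi cells. CD1A was at 22.7, 10.0 and 1.68 CPM. TOX2 was at 25.6, 20.6 and 28.5 CPM (19.7 to 39.8 in the last, from 34 UMIs), with overlapping intervals. The gates differed in make-up, since a cytotoxic UMI was found in 790 others in CD4hiCD8lo and not in 1215, whereas in CD4hiCD8hi 871 had one and fewer had none. Within the cells with a cytotoxic UMI, DNTT was at 6.75 CPM in CD4hiCD8lo and 6.89 in CD4hiCD8hi, and CD1A at 9.12 and 8.95 CPM. Within those without one, DNTT was at 53.5 and 24.6 CPM and CD1A at 34.1 and 14 CPM. Over all FOXP3-positive cells, inside and outside the naive gate, CD1A was at 46.6 CPM in CD4hiCD8lo (54 UMIs) and 12.2 in CD4hiCD8hi cells (5 UMIs), whereas DNTT was at 9.49 and 9.75 CPM. In the CD4hiCD8lo ones CD1A was at 66.4 CPM inside the gate and 13.7 CPM outside it.

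Read from the genes to the tags, 90.6% of the DNTT-positive naive cells were CD4hiCD8lo against 82.0% of those without DNTT. For CD1A these shares were 91.8% and 82.0%, and for SOX4 87.6% and 82.6%. In median tag levels, the CD8 tag was at 251 against 254 UMIs with and without DNTT and at 234 against 257 with and without CD1A, and the CD4 tag at 428 against 436 and 427 against 435. Across 5 equal groups of CD4hi naive cells ranked by CD8 tag, CD1A was detected in 12.5%, 13.1%, 13.6%, 12.1% and 7.45% of cells. DNTT was at 12.5%, 14.5%, 13.4%, 14.6% and 10.4%. For CD1A the lower share was thus in the top group alone. DNTT was also lowest there, but its interval (8.49% to 12.7%) overlapped those of the rest. The median depth (3694 against 2976 to 3021 UMIs in the rest) and the memory and effector genes (2234 CPM against 716 to 1142) were highest in the top group. Ranked by CD4 tag, the top group (median depth 4556 UMIs) had DNTT in 9.97% and CD1A in 9.74% of cells.

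**Figure D4:**
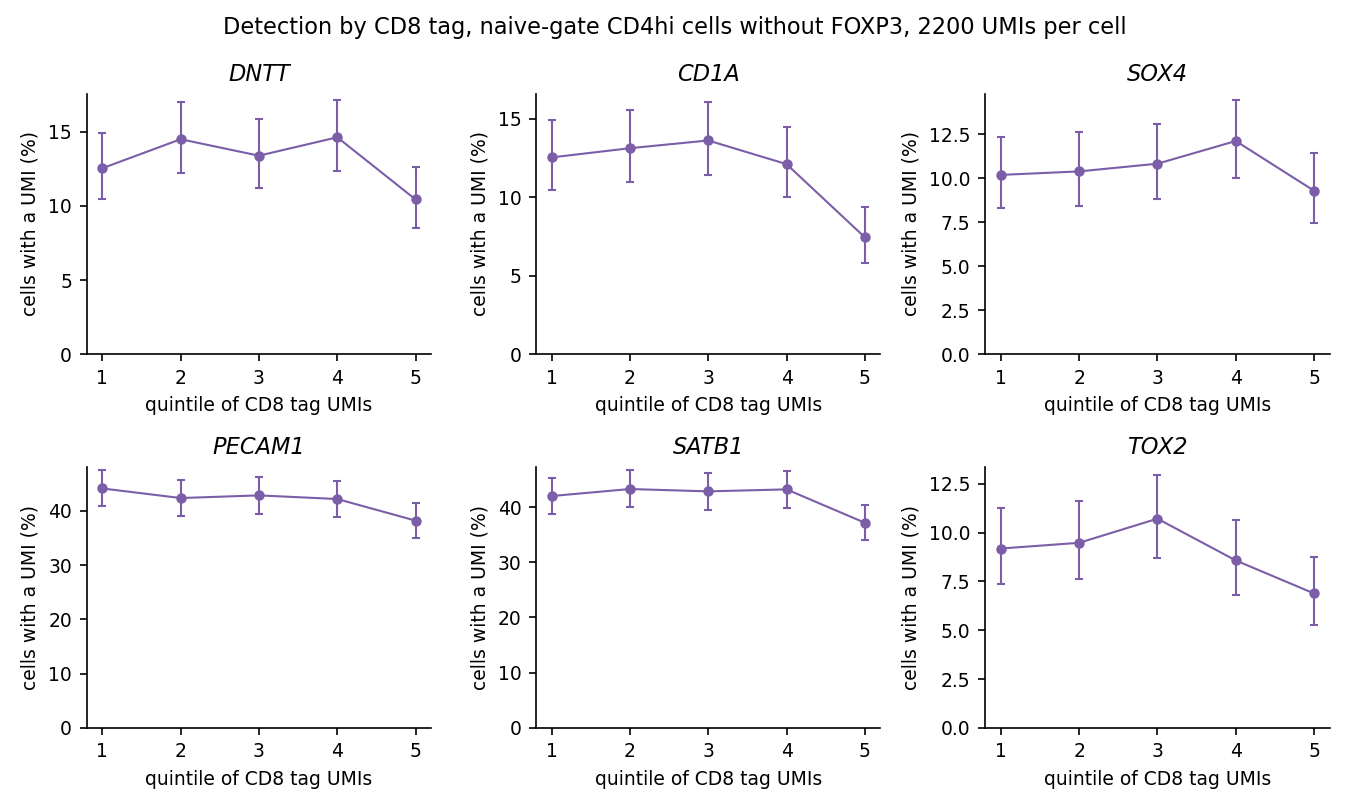
Share of cells with a UMI of each gene in 5 equal groups of naive-gate CD4hi cells without FOXP3, ranked by CD8 tag UMIs, after thinning to 2200 gene UMIs. Error bars are exact binomial 95% intervals. CD1A lies between 12.1% and 13.6% in the first 4 groups and at 7.45% in the top group.

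Co-detection asked whether the genes mark the same cells. At 2200 UMIs in the naive gate, 74 cells held both DNTT and CD1A where 66.2 were expected from independent detection, a ratio of 1.12 (0.878 to 1.40). DNTT and SOX4 were together in 54 cells against 60.0 expected (0.900, 0.676 to 1.17), but at 3000 UMIs the ratio was above 1, at 1.18 (0.845 to 1.60), and it was 1.09 with the naive gate at 5 UMIs, so its side of independence was not settled. CD1A and SOX4 were together in 73 cells against 53.7 (1.36, 1.07 to 1.71). DNTT was thus found with the other 2 about as often as independence gives, and CD1A and SOX4 more often than that. The largest ratios involved TOX2: 1.55 (1.21 to 1.95) with CD1A, from 70 cells against 45.3, and 1.39 (1.05 to 1.80) with SOX4, from 57 cells against 41.1. PECAM1 and SATB1, in 803 cells against 772, had a ratio of 1.04. Over the 15 pairs the ratios ran from 0.900 to 1.55 with a median of 1.12.

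**Figure D5:**
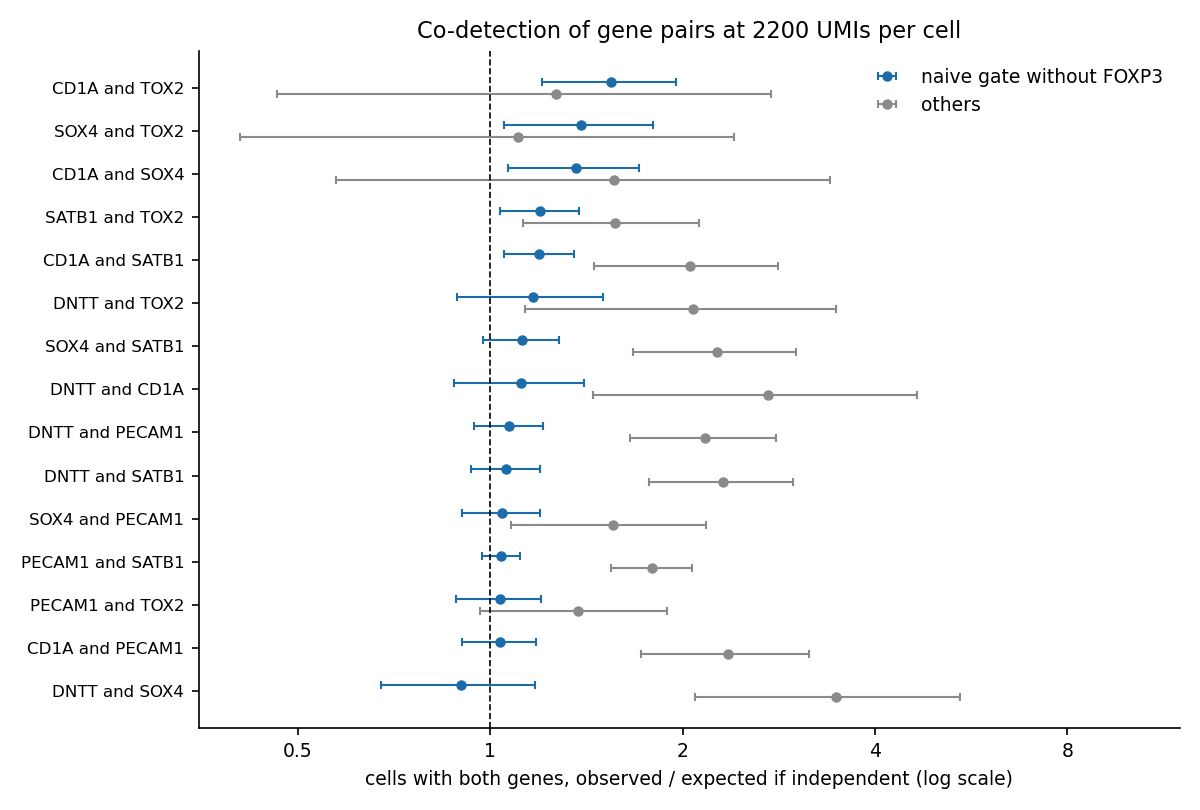
Cells holding both genes of a pair, observed over expected from independent detection, at 2200 UMIs per cell (log axis), for the naive gate without FOXP3 (blue) and the others (grey). Error bars are exact 95% intervals of the observed count and the dashed line marks independence. DNTT and SOX4 are at 0.900 in the naive gate (1.18 when thinned to 3000 UMIs) and 3.48 in the others.

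Among the naive CD4hiCD8lo cells alone the median was 1.06, with CD1A and TOX2 at 1.53, CD1A and SOX4 at 1.25 (65 cells against 51.9, interval 0.966 to 1.60, which includes 1) and DNTT and SOX4 at 0.820 (47 against 57.3). In naive CD4hiCD8hi cells, where these pairs had under 5 expected cells, CD1A and SOX4 were at 2.34 (1.01 to 4.60, 8 cells), CD1A and TOX2 at 0.720 and SOX4 and TOX2 at 0.570 (2 cells each). In the others the ratios were larger, with a median of 2.05. DNTT and SOX4 were together in 19 cells there against 5.46 expected (3.48), and DNTT and CD1A in 13 against 4.77 (2.72). In the others without a cytotoxic UMI the median was 1.27. In those with one it was 3.09, with a range of 0.860 to 12.5, but only 3 of the 15 pairs had at least 5 expected cells there. These were PECAM1 with SATB1 at 2.62 (1.95 to 3.44), PECAM1 with TOX2 at 1.10 and SATB1 with TOX2 at 0.895. None of the 5 pairs with CD1A was among these: the ratio was 12.5 (4.05 to 29.1) with DNTT, 5.66 (3.24 to 9.20) with PECAM1 and 3.89 (2.01 to 6.79) with SATB1, and the intervals included 1 with SOX4 (1 cell) and TOX2 (3 cells). The CD1A share in these cells was under the control share, and the part of free RNA in these pairs was not tested. Over all kept cells the median was 1.39.

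Counted together, 3117 of the 4481 naive cells held none of DNTT, CD1A and SOX4, 1177 held 1, 180 held 2 and 7 held all 3. Independence gives 3096, 1219, 159 and 6.90 cells. At least 2 of the 3 were found in 187 naive cells, 4.17% (3.61% to 4.80%). In FOXP3-positive cells 321 held none, 47 held 1, 2 held 2 and 0 held all 3, so at least 2 were found in 0.541%. This share rested on 2 cells, where independence gives 2.01, and it changed with depth, as given below. In the others at least 2 were found in 36 cells, 1.12%, where independence gives 13.7. By tag, 169 naive CD4hiCD8lo cells held at least 2 (161 expected), as did 17 CD4hiCD8hi cells (10.3 expected) and none of 100 CD4loCD8hi cells. With all 6 genes, 76.1% of the naive cells held at least 1, and 1 cell held all 6.

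Within the naive gate, cells with and without each gene were set side by side over all other genes, after thinning. The 3 lowest genes in the positive cells recurred in part. S100A4, a calcium-binding protein of memory T cells, was lower with DNTT (log2 ratio -3.19), CD1A (-3.24), SOX4 (-3.28), SATB1 (-2.04) and PECAM1 (-1.57). It was carried by few cells, since it was detected in 2.78% of cells with DNTT and 9.88% of those without. AHNAK, a large scaffold protein, was lower with the same 5 genes, by log2 ratios from -3.48 (CD1A) to -1.07 (PECAM1). ITGB1, an integrin chain of memory T cells, was at -1.73 with DNTT, -1.25 with SATB1 and -1.05 with PECAM1. The other lowest genes were CD74, the invariant chain of MHC class II, with CD1A (-2.64) and FGL2 with SOX4 (-2.46). For TOX2 they were ANXA1 (-1.18), RRNAD1 (-1.26) and 1 gene known by identifier only (-1.62). CR2 was lower with DNTT (4 UMIs against 109 without, log2 ratio -2.01, -3.91 to -0.61) and at 0 UMIs with CD1A (113 without). Positive cells were slightly shallower before thinning, at a median of 2851 against 3117 UMIs for DNTT and 2951 against 3093 for CD1A.

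On the higher side few genes stood out. CD1C, a CD1 gene next of kin to CD1A, was at 41.5 CPM in cells with CD1A and 13.0 without (log2 ratio 1.68, 1.16 to 2.18), and was detected in 8.16% against 2.40% of cells. CD1 genes are similar in sequence, and whether reads of CD1A were in part assigned to CD1C was not tested. The next genes with CD1A were UGP2 (1.08), ALG2 (1.06) and IFT88 (1.03). For DNTT the highest named gene was CALY at 0.91 (0.28 to 1.49), for SOX4 DLG1 at 1.16 (0.49 to 1.78) and for TOX2 BTBD9 at 1.35 (0.65 to 1.99). With SATB1, ID3, an inhibitor of E-protein transcription factors, was at 0.70 (0.43 to 0.98). TOX was higher with TOX2 (0.68, 0.32 to 1.03), and so was CD38 (0.43, 0.20 to 0.66), a surface enzyme of thymocytes and naive cells. CD8A RNA was lower with DNTT (-0.65, -1.03 to -0.29) and with CD1A (-0.64, -1.03 to -0.26), whereas CD4 RNA was at 0.20 (-0.08 to 0.46) and 0.37 (0.09 to 0.64). Each of the 6 genes was set against 4155 to 4365 others, so single genes at these ratios rest on counting intervals alone.

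The listed relatives of the 6 genes did not share one pattern. Of 12 tested genes of receptor gene recombination and end joining, DNTT was the 1 at least 2-fold higher in the naive gate than in the others, and POLM, a related polymerase, the 1 lower (-1.0), with a median log2 ratio of -0.24 against -0.11 for all genes. XRCC6 and PRKDC, which join broken ends, were at -0.09 and -0.08. Over all genes 2.49% were higher and 10.3% lower in this comparison. Of 9 tested genes of cortical thymocytes 4 were higher, DNTT and CD1A included, and 3 lower, among them CD1D (1.43) and ELOVL4 (1.05), against CD99 (-1.38) and CD1C (-1.26). CD1 genes summed to 864 CPM in the B-cell-like barcodes (479 UMIs, of which CD1A gave 6), and the part of such cells in the ratio of CD1C was not tested. Of 12 tested genes of recent thymic emigrants 4 were higher, NREP (2.07) and the selected genes PECAM1, SOX4 and SATB1, and 1 was lower, ADAM23 (-2.88), while CR2 (-0.63), CR1 (-0.64) and CCR9 (-0.47) passed neither limit. TOX and TOX4 were at 0.05 and -0.08. Of 11 further genes of naive and resting cells 4 were higher, among them BACH2, a transcriptional repressor (1.21). These lists contain the 6 genes where they belong to them.

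Over 11 groups of at least 50 cells, formed by the naive gate, FOXP3, cytotoxic UMIs and tags, the genes most like each of the 6 were sought among 7925 genes by Pearson's r of log2(CPM + 5). The groups share 1 library and were formed in part by the naive gate, on which the 6 genes had been selected, so a high r among the 6 was set in part by that choice and is only a description. DNTT was most like LYPD1 (0.96), RETREG1 (0.96) and FHL1 (0.94), and SATB1 came sixth (0.93). CD1A was most like CALD1 (0.94), RING1 (0.92) and ZNF346 (0.91), and its r was 0.79 with SOX4 and 0.63 with DNTT. SOX4 was most like SECISBP2 (0.97), UBE2D2 (0.96) and PPP1R2 (0.96), with SATB1 at 0.95. PECAM1 was most like RFLNB and RPL30 (both 0.98) besides 1 gene known by identifier only, SATB1 was most like ORMDL3 (0.98), ITGA6 (0.97) and HPCAL1 (0.97), and TOX2 was most like METTL9 and STXBP3 (both 0.94) besides 1 such gene. TOX2 had an r of 0.15 with PECAM1. PECAM1 had an r of 0.94 with SATB1, 0.91 with SOX4 and 0.84 with DNTT.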

How the data were processed

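The authors used Cell Ranger 3.1.0, with STAR 2.5.1b as aligner and Macaca_fascicularis_5.0 as genome, and deposited UMI counts without normalization for barcodes that Cell Ranger called as cells, and ran their own filter later in Seurat 3.1.3. No coordinates or sequences are given, since the gene table at hand is of another assembly. Their limits (200 to 4000 genes, at most 20% mitochondrial UMIs over 13 genes) left 8830 of 8953 barcodes, more than the number of cells stated in the study's methods.

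Summed counts of a cell group are in CPM and carry an exact Poisson 95% interval. Shares of cells used Clopper-Pearson intervals after thinning without replacement to 2200 UMIs. Log2 ratios were taken for genes with 50 UMIs or more in the 2 groups together, and their intervals come from how the UMIs divide between the groups (exact binomial). Where a count was 0, the floor was 3 UMIs. Tags were divided by 2-component mixtures on log10(UMIs + 1). Named companions of a gene were the 5 highest and 3 lowest in positive cells, detected in at least 5% of the higher side, and genes of like pattern were the 3 with the largest r among genes with at least 200 UMIs. Listed genes that were found could be named, though a few are not reported here. Members and lists were chosen with earlier results of these data known. Doublet scores from scanpy 1.11.5 called 0 cells at the automatic threshold, which did not work here, so the 530 highest were removed as an alternative. Further tools were scikit-learn 1.9.0, scipy 1.17.1, numpy 2.4.6 and Python 3.11.15, and the steps were tested on simulated data.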

Additional observations from a re-analysis of the deposited data

How the results depend on the processing

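In all, 142 values were recomputed under 19 alternatives, which gave 1830 values, of which 1510 stayed within the counting interval or within 1.5 times the count, and 320 moved. No log2 ratio of at least 1 in size changed sign, and other kinds of value were not judged by direction. Of 288 values for the main results, 228 stayed within these limits and the rest moved. Of 1542 values for single genes and groups, 260 moved. Limits on tags were kept where cells were removed. Another seed, a mitochondrial limit of 10%, all deposited barcodes, removal of the highest doublet scores and Otsu tag limits moved none of the values listed here. No paired analysis was possible because there is 1 animal, and no library could be left out.

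The share of cells with at least 2 of DNTT, CD1A and SOX4 followed depth, by construction. Thinned to 1500 UMIs it was 2.13% in the naive gate, 0% in FOXP3-positive cells and 0.691% in the others. Thinned to 3000 UMIs it was 5.39% and 2.41% in the first 2, and without thinning 7.27%, 2.86% and 2.0%. At 3000 UMIs the ratio of DNTT and SOX4 was 1.18 (0.845 to 1.60) and so crossed from below to above 1.

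The naive gate set the contrast with the others. At 2 UMIs the log2 ratios were 2.26 for DNTT, 2.26 for CD1A and 2.19 for SOX4, with 393 genes at least 2-fold higher, 44 in FOXP3-positive cells inside against outside the gate, and a share of 0.701% with at least 2 of the 3 genes in the others. At 5 UMIs they were 0.77, 1.33 and 0.97, with 72 and 11 genes and a share of 2.17%, and the limit of CD1A in CD4loCD8hi cells was -2.82. With a mean over cells they were 1.26, 1.70 and 1.22. With gates set on thinned counts, 153 genes were higher in the naive gate, 14 in FOXP3-positive cells inside it, and 91 lower in CD4hiCD8hi cells, where DNTT was at -0.55 and CD1A at -0.63, and the limit of CD1A in CD4loCD8hi cells was -2.70.

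With at least 2 FOXP3 UMIs DNTT was at -3.51 in the naive gate, with 723 genes lower in FOXP3-positive cells and 14 higher inside the gate. With tag limits raised by 0.15 on the log10 scale, DNTT was at -1.30 in CD4hiCD8hi cells with 219 genes lower. With limits lowered by 0.15, DNTT was at -0.33, CD1A at -0.63 and SOX4 at -0.41 with 17 genes lower, and the limit of CD1A in CD4loCD8hi cells was -2.38. Without cells holding UMIs of other cell types that limit was -2.55.

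With at least 10 UMIs over both groups, 492 genes were higher in the naive gate, 357 in FOXP3-positive cells inside it and 335 lower in CD4hiCD8hi cells. Both remaining alternatives were chosen after seeing the data. With at least 500 UMIs the counts were 69 genes in the naive gate, 33 in FOXP3-positive cells, 38 in those of the naive gate, 1 inside against outside it, 2 in CD4hiCD8hi and 127 in CD4loCD8hi cells. In cells low in memory genes, 57 genes were higher in the naive gate, with DNTT at 0.22, CD1A at 0.68 and SOX4 at 0.24, and the share with at least 2 of the 3 genes was 3.34% in the others. In CD4hiCD8hi cells 96 genes were then lower, with DNTT at -0.50, CD1A at -0.65 and SOX4 at -0.36. Apart from thinning, the causes of these shifts were not tested.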
